A study of Rattus norvegicus with 15 samples.

Results

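The microRNAs (miRNAs) described here are miR-126, miR-221 and miR-222, known from work on blood vessels, as read in rat heart. They were chosen by name: rno-miR-126 and rno-miR-126*, the 2 arms of one precursor, and the neighbours rno-miR-221 and rno-miR-222, with every probe that carries one of these names. That gave 4 of the 350 rat miRNAs on the array, through 7 of its 938 probes. The label "endothelial" is background and was not measured, since total RNA of heart was used and no cells were sorted.

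Heart RNA of male Sprague-Dawley rats was read on 15 one-colour arrays, 5 per group. The control rats (Veh) are labelled only as having received vehicle. DM rats were made diabetic with 1 dose of streptozotocin, 60 mg/kg, given through the tail vein, and had plasma glucose above 300 mg/dL. GF rats had the same streptozotocin diabetes and in addition went without food for 24 h and received insulin intraperitoneally at 0.5 IU/kg, to make plasma glucose fluctuate. The fast and the insulin were given to GF alone, so their parts in a GF difference cannot be told apart. Streptozotocin is toxic to pancreatic beta cells, so both diabetic groups model insulin lack.

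The labels do not say that the arrays came from separate animals, so p-values measure the spread between these samples, which may be technical. Of the 105 pairs of arrays, 5 differed by less than the error stated by the scanner software (reduced chi-square from 0.243 to 0.630, against 1.07 to 7.70 for the other 100 pairs). The arrays of such a pair were treated as 1 sample and their values averaged, giving 4 Veh, 3 DM and 3 GF samples, 10 in all, called distinct samples here. They are named by their replicate numbers, as in "GF 1 and 5". From 166 to 190 miRNAs were detected per array. Before scaling, GF arrays were the brightest on average. The 75th percentile of their signal was 2780 ± 529 (SD, n = 3), while that of Veh arrays was 2205 ± 261 (SD, n = 4). DM arrays were the dimmest on average, at 2027 ± 256 (SD, n = 3). Single arrays of the groups overlapped, with GF 5 at 2054 and DM 2 at 2566. Levels below are log2 of the signal after each array was scaled to that percentile.

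MiRNAs are short RNAs that guide silencing proteins to messenger RNAs, mainly by pairing of their bases 2 to 8, the seed. MiR-126 is abundant in endothelial cells, lies in an intron of Egfl7, a gene of the vessel wall, and is known to support vessel integrity and the response to vascular endothelial growth factor. MiR-221 and miR-222 are made from one primary transcript; in endothelial cells they are known to target the receptor c-Kit, and in vascular smooth muscle they are known to promote growth. Both of the latter are also made in other cell types.

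The mature sequences follow because their seeds divide the 4 members into 3 kinds. They are from RefSeq on the GRCr8 assembly, 5′ to 3′, with the seed in capitals, and all 4 names were matched.
rno-miR-126: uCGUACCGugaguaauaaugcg
rno-miR-126*: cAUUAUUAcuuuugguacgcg
rno-miR-221: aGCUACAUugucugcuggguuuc
rno-miR-222: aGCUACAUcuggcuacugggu
RefSeq names them rno-miR-126a-3p, rno-miR-126a-5p, rno-miR-221-3p and rno-miR-222-3p. The seeds CGUACCG and AUUAUUA each belonged to 1 of the 693 rat mature names in the RefSeq table, so the arms of miR-126 share a precursor and no seed. The seed GCUACAU belonged to 2 names, miR-221 and miR-222. These 2 were identical over their first 8 bases and at 11 of 21 positions compared from the 5′ end.

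Both arms of miR-126 lie on the plus strand at chr3:29813219-29813240 (miR-126) and chr3:29813182-29813202 (miR-126*). The first RefSeq entry for these arms carries the gene symbol Mir126b, although their mature names are of miR-126a. Mir126b lies within Egfl7 (chr3:29802481-29814966), and the miRNA gene Mir126a (chr3:29813150-29813267) spans the same bases, so the symbol alone does not tell the source gene. MiR-222 (chrX:6022682-6022702) and miR-221 (chrX:6023246-6023268) lie on the plus strand with 458 bases between their genes, within the spans of the long noncoding RNA genes LOC120099382 and LOC120099384.

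Of the 4 members, 3 were clearly above background on every array and miR-222 was not. MiR-126 was read by 2 probes with median raw signals of 18578 and 6724 over the 15 arrays, miR-126* by 1 probe at 642, and miR-221 by 2 probes at 142 and 70.4. All used spots of these 5 probes were well above background on all 15 arrays. Probes bind with different strength, so these signals do not rank the miRNAs by amount. The brighter probe stood for each miRNA. Over the repeat spots on 1 array the median coefficient of variation was 3.11% and 4.47% for the probes of miR-126, 5.88% for miR-126*, and 4.86% and 6.43% for miR-221.

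MiR-222 was read by 2 probes, and neither was well above background on any array. Of the 288 spots used, 5 were well above background (1.74%, exact 95% interval 0.566% to 4.00%). Of these 5 spots, 4 were among the 95 spots of Veh and 1 among the 96 of GF, with 0 of the 97 of DM. By a weaker criterion of the software, positive and significant against background, 185 of the 288 spots passed (58 in Veh, 67 in DM and 60 in GF), 132 of them on 1 of the 2 probes. The probe means per array ran from -0.338 to 14.8, with a median of 5.03. Summed over its probes, miR-222 was called detected by the scanner software on 2 of 15 arrays, Veh 4 (10.3) and Veh 5 (12.6). By the well-above-background criterion used for every miRNA here, miR-222 has only an upper bound in all 3 groups and was not tested, and no ratio of miR-221 to miR-222 was formed. Of the cluster mates with the shared seed, one was thus read on all arrays and the other was not well above background on any.

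MiR-126 was highest in Veh, intermediate in DM and lowest in GF. Its log2 level was 14.49, 14.22, 14.39 and 14.17 in the Veh samples (1 and 3, 2, 4, and 5). It was 14.29, 14.07 and 14.04 in DM (1, 2 and 4, and 3 and 5). In GF (1 and 5, 2 and 4, and 6) it was 13.99, 13.88 and 13.99. All 3 GF samples lay below all Veh and all DM samples, while DM overlapped Veh, with DM 1 above Veh 2 and Veh 5. The means were 14.32 ± 0.15 (SD, n = 4), 14.14 ± 0.14 (SD, n = 3) and 13.95 ± 0.07 (SD, n = 3).

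MiR-126*, the other arm of the precursor, followed the same order of means with more overlap. Its level was 9.57, 9.33, 9.77 and 9.46 in Veh. It was 9.38, 9.38 and 9.22 in DM. It was 9.33, 9.17 and 9.25 in GF. All GF samples were below all Veh samples, the highest GF value (9.3255) lying only just under the lowest Veh value (9.3258), and GF overlapped DM. The mean was 9.53 ± 0.19 (SD, n = 4) in Veh, 9.33 ± 0.09 (SD, n = 3) in DM, and in GF it was 9.25 ± 0.08 (SD, n = 3).

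MiR-221 did not follow that order: DM lay with Veh, and 2 of the 3 GF samples lay lower. Its level was 7.25, 7.14, 7.33 and 7.67 in Veh. It was 7.38, 7.56 and 7.15 in DM. It was 7.30, 6.77 and 6.82 in GF. GF 2 and 4 and GF 6 were below all Veh and DM samples, and GF 1 and 5 lay inside both ranges. The mean was 7.35 ± 0.23 (SD, n = 4) in Veh, 7.37 ± 0.20 (SD, n = 3) in DM, and in GF it was 6.96 ± 0.29 (SD, n = 3). Within the 5 close pairs the 2 arrays differed by 0.01 to 0.12 for miR-126, 0.03 to 0.12 for miR-126* and 0.04 to 0.12 for miR-221.

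**Figure D1:**
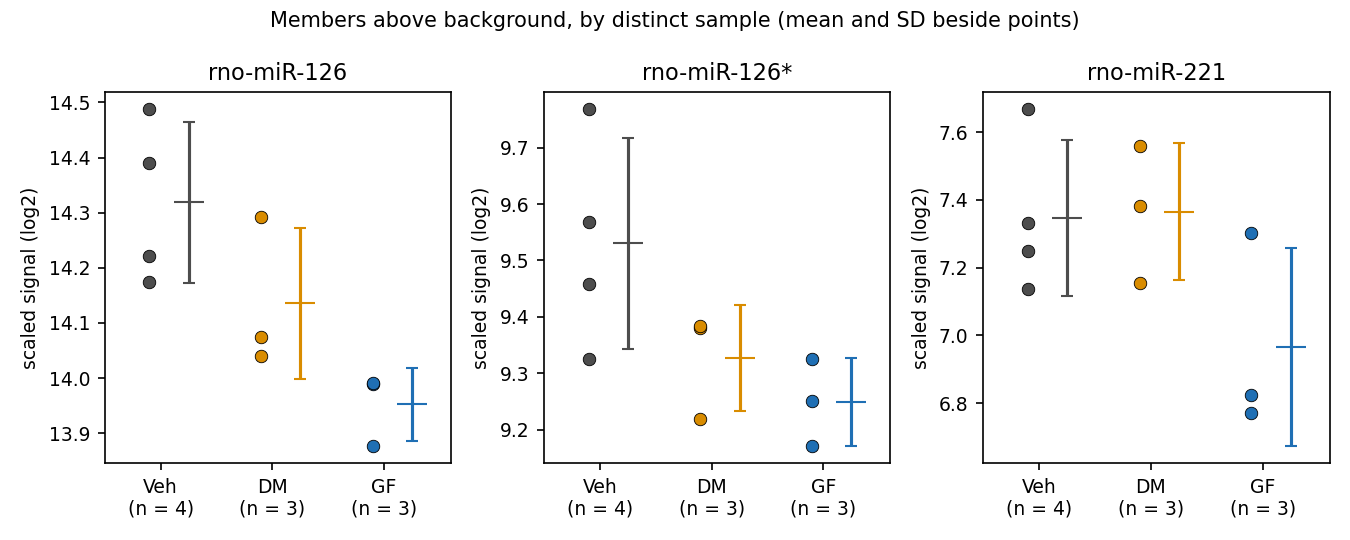
Scaled signal (log2, y axis; each panel has its own range, which does not start at 0) of rno-miR-126, rno-miR-126* and rno-miR-221 in the distinct samples of Veh (n = 4), DM (n = 3) and GF (n = 3). Points are samples, and the bar beside them is the mean with its SD; for miR-126 the 3 GF points, from 13.88 to 13.99, lie below all others, while for miR-221 the GF sample at 7.30 lies among the other groups.

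The comparison of GF with Veh asks what diabetes with fluctuating glucose changes against no diabetes. All 3 members that could be tested had lower means in GF, from 0.768 to 0.823 times their Veh levels, and none passed after adjustment. MiR-126 in GF was 0.776 times its Veh level (95% interval 0.665 to 0.906). That is a log2 difference of -0.37 (SE 0.0995, limma adjusted p = 0.0542). For miR-126* the ratio was 0.823 (0.697 to 0.971; log2 -0.28, SE 0.107, adjusted p = 0.119). For miR-221 it was 0.768 (0.591 to 0.997; log2 -0.38, SE 0.168, adjusted p = 0.160). In the same limma fit 13 of 165 miRNAs passed (7.88%), of which 5 were higher in GF (3.03%) and 8 lower (4.85%), and miR-126 ranked 14 by p, the first not to pass. The split depended on the scaling: after quantile normalization it was 8 higher and 3 lower, with no scaling 16 and 2, with a 75th percentile taken over all probes 15 and 1, and with the authors' deposited log2 values 2 and 0. The count was 0 without Veh 1 and 3, Veh 2, Veh 4 or GF 2 and 4 (40, 47, 36 and 29 unadjusted), 8 without GF 6, 24 without DM 3 and 5 and 28 without Veh 5. Before adjustment all 3 members had a p under 0.05 (0.0046, 0.0259 and 0.0476), as did 51 of 165 miRNAs (30.9%). The groups did not overlap, with GF lower, for both arms of miR-126 and for 32 of the 165 miRNAs (19.4%). That holds for the scaled distinct samples. Among single arrays, GF 1 (9.38) lay above Veh 2 (9.33) for miR-126*. With no scaling, miR-126 ran from 13.93 to 14.42 in GF and from 14.18 to 14.50 in Veh, and the ranges of miR-126* overlapped too. In whole tissue, fewer cells of a type and less RNA per cell cannot be told apart.

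Whether miR-126 passed depended on how arrays were counted and probes summarised, and no setting with another scaling or background correction gave a pass. Of 16 alternative settings, 7 gave an adjusted p under 0.05 for miR-126, 3 for miR-126* and 0 for miR-221. For miR-126 the limma adjusted p was 0.907 with no scaling and 0.299 with the percentile taken over all probes. It was 0.170 with quantile normalization and 0.0589 with normexp background correction. These fits kept the distinct samples of the reported setting, where miR-126 did not pass either. The fits with replicate number or slide as a block passed but counted close pairs as separate samples. With all 15 arrays taken as independent, the difference was -0.41 for miR-126 (adjusted p = 0.00128) and -0.29 for miR-126* (adjusted p = 0.0121), where 60 of 165 miRNAs passed (36.4%). With close pairs kept as a random block it was -0.37 for miR-126 (adjusted p = 0.0250). With 8 samples after wider merging no miRNA passed (0 of 165; 35 unadjusted). Leaving out 1 of the 10 samples put the adjusted p of miR-126 under 0.05 in 3 cases (without Veh 5, 0.0254; without DM 3 and 5, 0.0468; without DM 1, 0.0488) and left it between 0.0676 and 0.201 in the other 7.

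The 2 probes of miR-126 fell on either side of the threshold. In a limma fit of 300 single probes, in which 24 passed (8%), the dimmer probe had a difference of -0.44 in scaled signal (SE 0.0941, adjusted p = 0.0199). Before scaling, its array means overlapped, from 5034 (GF 5) to 8477 (GF 2) in GF and from 6705 (Veh 1) to 8955 (Veh 4) in Veh. The brighter probe had -0.37 (SE 0.0992, adjusted p = 0.0516). Their 95% intervals, -0.65 to -0.23 and -0.59 to -0.14, overlap for most of their length. The probes of miR-221 differed by -0.45 (adjusted p = 0.124) and -0.38 (adjusted p = 0.151). All 4 probes of these 2 miRNAs thus had lower means in GF. The dimmer miR-126 probe passed in 5 of 10 fits that each left out 1 sample and did not without Veh 1 and 3 (adjusted p = 0.0683), Veh 2 (0.0514), Veh 4 (0.0674), GF 2 and 4 (0.107) or GF 6 (0.0611).

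The size of these differences rests on the scaling of the arrays. With no scaling, GF minus Veh was -0.05 for miR-126 and -0.06 for miR-221 and turned to 0.04 for miR-126*, while the median difference of all 165 miRNAs moved from -0.05 to 0.25. Relative to that median, miR-126 was at -0.29, miR-126* at -0.21 and miR-221 at -0.31. Over 6 ways of scaling or background correction, the authors' deposited log2 values among them, the difference relative to the median ran from -0.31 to -0.25 for miR-126, from -0.29 to -0.18 for miR-126* and from -0.37 to -0.26 for miR-221. The members were thus lower in GF than the middle of all tested miRNAs under each of these 6. The absolute difference was near 0 in unscaled signal. Several of these 6 differ mainly by a constant per array, and the authors' values are unscaled log2 total gene signals centred on the mean of Veh. Such a constant moves a member and the median nearly alike, so these 6 are not independent checks of the relative difference. Within slide 1 (arrays as samples) the differences of miR-126, miR-126* and miR-221 were -0.41, -0.17 and -0.17, and within slide 2 they were -0.41, -0.37 and -0.44. None passed within a slide (limma, 0 of 165 on either; 40 and 50 unadjusted).

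**Figure D2:**
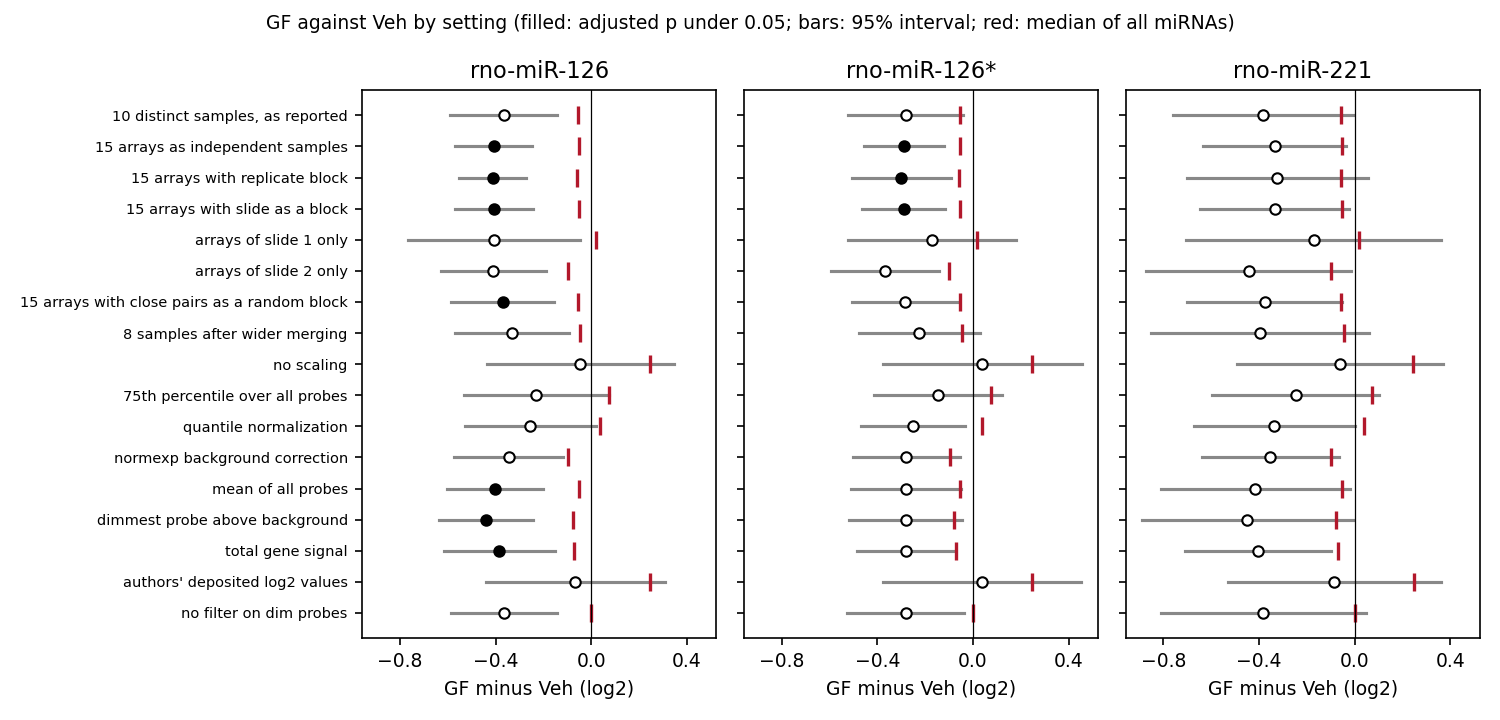
Difference GF minus Veh (log2, x axis) of the 3 tested members, with its 95% interval, under the reported setting and 16 alternatives (y axis); filled points have an adjusted p under 0.05, and the red tick is the median of all miRNAs in that setting. Points near 0 in the unscaled and the authors' deposited values stand beside a median of 0.25, and in every setting each point lies left of the tick. A constant added to an array moves point and tick nearly alike, so the settings that differ in scaling are not independent checks.

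The comparison of DM with Veh asks what sustained high glucose changes. MiR-126 in DM was 0.881 times its Veh level (95% interval 0.755 to 1.03; log2 -0.18, SE 0.0995, limma adjusted p = 0.548). MiR-126* was at 0.869 times (0.736 to 1.03; log2 -0.20, SE 0.107, adjusted p = 0.546). MiR-221 was at 1.01 times (0.780 to 1.32; log2 0.02, SE 0.168, adjusted p = 0.983), with a sign that turned under 6 of the 16 alternatives. No member passed, and neither did any of the 165 miRNAs (0%; 14 unadjusted, 8.48%). The interval of miR-221 leaves room for a lower or a higher level, so it does not show an equal level. This comparison and the one before share the Veh samples, so their values are not independent.

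The comparison of GF with DM sets fluctuating against sustained high glucose in diabetic rats. MiR-126 in GF was 0.881 times its DM level (95% interval 0.747 to 1.04; log2 -0.18, SE 0.106, limma adjusted p = 0.489). MiR-126* was at 0.947 times (0.793 to 1.13; log2 -0.08, SE 0.114, adjusted p = 0.803). MiR-221 was at 0.758 times (0.573 to 1.00; log2 -0.40, SE 0.180, adjusted p = 0.418), and its difference was at rank 9 of 165 from the lowest. No member passed, as with all 165 miRNAs (0%; 18 unadjusted, 10.9%). The groups did not overlap for miR-126, with GF lower, as for 21 of the 165 (12.7%). With no scaling these 3 differences turned to 0.26, 0.37 and 0.05, against a median of all miRNAs of 0.35; relative to it they were -0.09, 0.01 and -0.31. In the order Veh, DM, GF, neighbouring levels of miR-126 thus did not differ beyond the test's error, and the same holds for miR-126* and miR-221.

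**Figure D3:**
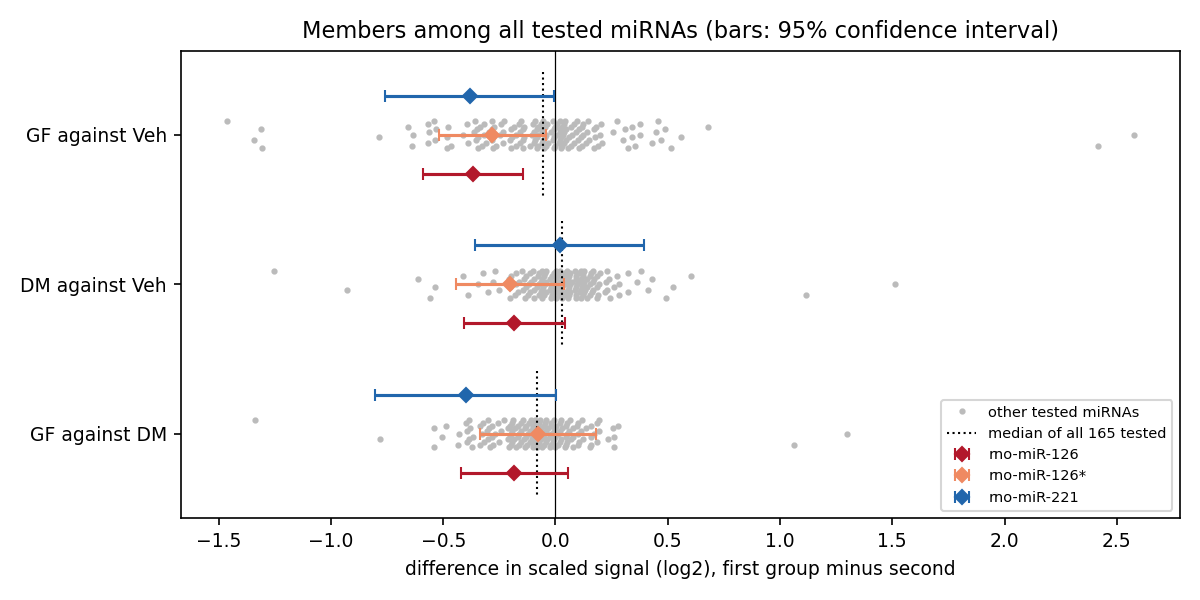
Differences in scaled signal (log2, x axis; first group minus second) of rno-miR-126, rno-miR-126* and rno-miR-221 with 95% intervals, over the other tested miRNAs (grey points) and the median of all 165 (dotted line), in the 3 comparisons. All 3 members lie left of the median in GF against Veh (-0.37, -0.28 and -0.38), and miR-221 lies at 0.02 in DM against Veh and at -0.40 in GF against DM.

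The arms of miR-126 are cut from one hairpin. Both were read on the same array, so their ratio cancels the scaling of that array. The log2 signal of miR-126 minus that of miR-126* was 4.92, 4.90, 4.62 and 4.72 in Veh, 4.91, 4.69 and 4.82 in DM, and 4.66, 4.71 and 4.74 in GF. The size of this ratio reflects probe brightness too, so only its change between groups can be read. It was 4.79 ± 0.14 (SD, n = 4) in Veh, 4.81 ± 0.11 (SD, n = 3) in DM, and in GF it was 4.70 ± 0.04 (SD, n = 3). GF minus Veh was -0.08 (two-sided exact permutation p = 0.457, adjusted 0.686). DM minus Veh was 0.02 (exact permutation p = 1, adjusted 1), and GF minus DM was -0.11 (exact permutation p = 0.300, adjusted 0.686). The smallest p these group sizes allow is 0.0571 against Veh and 0.1 between DM and GF, so no difference could have passed. Adjustment was over these 3 tests, since the 3 planned with miR-222 could not be run.

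The arms varied together across samples. Over the 10 distinct samples Pearson's r was 0.830 (permutation p = 0.00226) and Spearman's rho 0.842 (permutation p = 0.00376), with 1 relation in the family, so that the adjusted values are the same. Without Veh 1 and 3 and Veh 4, the samples farthest from the median of miR-126, r was 0.720 over 8 samples. After each group's mean was taken off, r was 0.638. Among the arrays of slide 1 it was 0.776 (7 arrays, rho 0.464) and among those of slide 2 it was 0.938 (8 arrays, rho 0.881). Both arms were read on the same array and share its scaling; with no scaling r was 0.924, where array brightness enters both. The relation of miR-221 with miR-222 could not be computed.

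**Figure D4:**
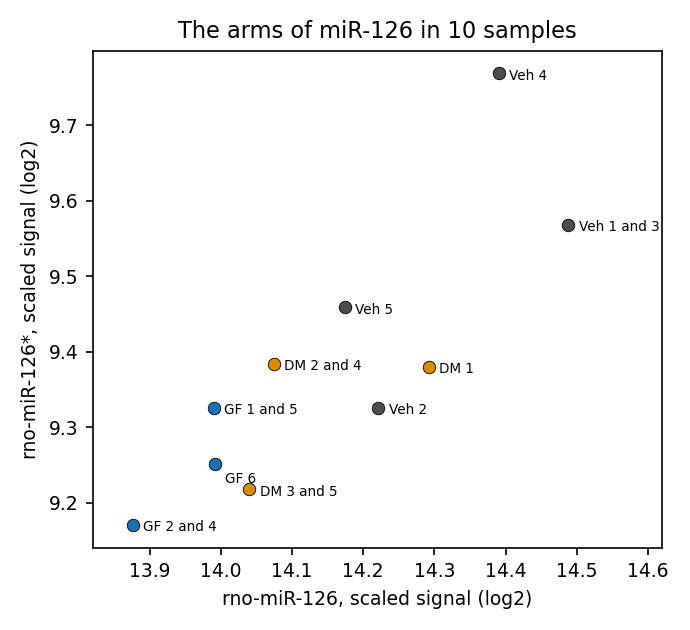
Scaled signal (log2) of rno-miR-126 (x axis) and rno-miR-126* (y axis) in the 10 distinct samples, coloured by group (grey Veh, orange DM, blue GF) and named by replicate numbers; neither axis starts at 0. The points rise together (r = 0.830), with Veh 1 and 3 and Veh 4 at the upper right and GF 2 and 4 at the lower left.

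The miRNAs most like each member across the 10 samples were listed by Pearson's r among the other 164 tested, as a description. For miR-126 they were miR-15b (0.897), miR-345-5p (0.882) and miR-22 (0.871), and its own other arm came at rank 9. Of these, miR-345-5p was lower in GF than in Veh in scaled signal (log2 -0.33, SE 0.0838, limma adjusted p = 0.0393). That call held in 2 of 10 fits that each left out 1 sample, those without Veh 5 or without DM 3 and 5. With no scaling the median difference of all 165 miRNAs moved from -0.05 to 0.25, a shift close in size to this difference. For miR-126* they were miR-133b (0.906) and miR-133a (0.894), both muscle miRNAs, and let-7c (0.886), with miR-126 at rank 7. For miR-221 they were miR-152 (0.933), miR-199a-5p (0.929) and miR-214 (0.926), of which the last 2 come from one locus and are abundant in fibroblasts. MiR-221 correlated less closely with miR-126 (0.439) and miR-126* (0.528). The median r over the other 164 was 0.168 for miR-126, 0.220 for miR-126* and 0.385 for miR-221. All these values share the arrays and their scaling.

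A list of other miRNAs known from vessels and vessel growth was set beside the members. Of its 27 names, 24 were on the array and 23 were tested. In GF against Veh, 2 rose, beside 5 of all 165 tested (3.03%), and 0 fell, beside 8 (4.85%), with a median difference of -0.0043, beside -0.05 over all 165, and a range from -0.39 to 0.68. The 2 were miR-20a (log2 0.47, SE 0.114, limma adjusted p = 0.0367) and miR-19b (0.45, SE 0.112, adjusted p = 0.0385), both of the miR-17-92 cluster, which is known for roles in growth and vessel formation. The other tested miRNAs of that cluster on the list were miR-92a (0.56, adjusted p = 0.0551), miR-17 (0.46, 0.0611), miR-19a (0.38, 0.0611) and miR-18a (0.06, 0.591). MiR-210, a miRNA of the hypoxia response, was at -0.28 (adjusted p = 0.104), and miR-503, known for its rise in endothelium under high glucose, was at -0.39 (adjusted p = 0.278). The upper end of the list's range was miR-34a, at 0.68 (SE 0.213, limma adjusted p = 0.0745). The calls of miR-20a and miR-19b held in 4 of 10 fits that each left out 1 sample; they were lost without Veh 1 and 3, Veh 2, Veh 4, DM 2 and 4, GF 2 and 4 or GF 6. In DM against Veh and in GF against DM, 0 of the 23 passed in limma, with medians of 0.11 and -0.08 beside 0.03 and -0.08 over all miRNAs.

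Markers of the cell types that heart RNA can hold were set beside the members, with sums taken over the scaled signals of each list. All 5 muscle miRNAs were read on all arrays; their sum ran from 16.92 to 17.38 (log2) in Veh, 16.95 to 17.05 in DM and 16.81 to 17.01 in GF, and 1 of 5, the heart muscle miRNA miR-208, fell in GF against Veh (-1.34, adjusted p = 0.0194). Smooth muscle miRNAs (0 of 2 passed) summed to 13.51 to 14.20 in Veh and 13.79 to 14.15 in GF. Fibroblast-rich miRNAs (0 of 4) summed to 14.71 to 15.24 in Veh and 15.09 to 15.39 in GF, and the 4 differed in sign. GF minus Veh was 0.32 for miR-21 and 0.31 for miR-29a (adjusted p = 0.151 and 0.157), and -0.48 for miR-199a-5p and -0.57 for miR-214 (both 0.0887), the pair listed above as close to miR-221. Red cell miRNAs (0 of 2) summed to 12.58 to 12.84 in Veh, 11.75 to 12.59 in DM and 12.16 to 12.53 in GF.

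Some leukocyte and epithelial miRNAs passed in GF against Veh and others of these lists did not. Of 5 tested leukocyte miRNAs, miR-142-5p (-0.64, limma adjusted p = 0.0367) and miR-146a (-0.46, adjusted p = 0.0194) fell in GF against Veh. With no scaling these were -0.32 and -0.14, and with the authors' deposited log2 values -0.31 and -0.17, and neither passed (adjusted p from 0.316 to 0.615). The other 3 were miR-142-3p at -0.48 (adjusted p = 0.0887), miR-150 at -0.0097 (0.966) and miR-223 at 0.51 (0.0611). The list's sum ran from 12.60 to 12.66 in Veh, 12.37 to 12.68 in DM and 12.28 to 12.48 in GF. Of 4 tested epithelial miRNAs, miR-200c (2.58, adjusted p = 0.0194) and miR-141 (2.41, adjusted p = 0.0194) rose, while miR-200a (0.07, adjusted p = 0.824) and miR-200b (0.02, adjusted p = 0.960) did not pass. MiR-200a and miR-200b lay near the floor, at most at 4.88 and 4.86. They were well above background on 7 and 6 of 15 arrays, so their small differences do not show equal levels. In Veh miR-141 was well above background on 2 of 5 arrays and its mean of 4.54 lay near the floor of 4.30, so its difference depends on that floor; with normexp it was 1.08, and that of miR-200c 1.43. The list's sum, which in Veh holds several values at the floor, ran from 6.46 to 7.38 in Veh, 7.15 to 8.79 in DM and 8.50 to 8.90 in GF. The list's remaining miRNA, miR-429, was not well above background on any array, nor were miR-122 of liver, miR-375 of pancreatic islets and miR-124 of neurons. The other neural miRNA listed, miR-9, was well above background on all 15 arrays, at low levels from 4.30 to 5.27. Its GF minus Veh was -0.54 (limma adjusted p = 0.0822). MiR-208, 2 leukocyte miRNAs and 2 epithelial miRNAs thus passed in GF against Veh in scaled signal, where no member did. These calls were all lost without Veh 1 and 3, Veh 2, Veh 4 or GF 2 and 4 (and that of miR-142-5p also without GF 6). The part of these miRNAs in the differences of miR-126, miR-126* and miR-221 was not tested. The only endothelial markers on the list were both arms of miR-126, so the label endothelial has no independent check in these data.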

How the data were processed

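The array files were used as deposited. Per the file headers, Agilent Feature Extraction 9.5.3.1 made them, and they hold background-subtracted signal intensity per spot and a total gene signal per miRNA. A second table that the authors deposited gives log2 values for 149 miRNAs, 3 members among them, and was recomputed from the array files within 2.05e-06. The authors' deposited comparison table of 35 miRNAs, with a p-value each, holds 0 members and was not used further.

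Flagged spots were dropped (153 to 294 of 7000 per array; 0 were saturated), spots were averaged per probe, and arrays were brought to a common 75th percentile, taken over the 254 probes for which more than 0.5 of spots were well above background on every array. Values under a floor of 4.30 (log2; 19.7) were raised to it. The brightest probe stood for a miRNA, and 165 miRNAs passed the filter (above background on 3 or more arrays in any group). They were tested over 10 distinct samples with limma 3.58.1 in R 4.3.3. Tests were two-sided, p-values were adjusted by Benjamini-Hochberg over all 165, and the threshold was 0.05. The code of the fit was run on simulated data with changes larger than those of the members, which does not test the scaling or the replicate structure. Exact permutation tests and correlations (100000 permutations) used scipy 1.17.1. Normexp (offset 50) used the median spot signal, the column the files hold. The number of arrays limits the precision.

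Named were the 4 members, the passing miRNAs of a vascular list, cell type markers, and the 3 miRNAs most correlated with each member. The other vascular miRNAs named were chosen after their values were seen. Members and lists were chosen with earlier results of these data known. Alternatives varied the replicates, blocks, scaling, background, probe summary and filter.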

Additional observations from a re-analysis of the deposited data

How the results depend on the processing

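Over 16 alternatives and 10 fits that each left out 1 distinct sample, GF minus Veh kept its sign for miR-126 and miR-221. MiR-126 passed at -0.41 with the 15 arrays as independent samples, at -0.41 with the replicate block and with slide as a block, at -0.37 with close pairs as a random block, at -0.40 with the mean of all probes, at -0.44 with the dimmest probe and at -0.38 with total gene signal; without 1 sample it ran from -0.41 to -0.31. MiR-126* passed at -0.29 with the 15 arrays and with slide as a block and at -0.30 with the replicate block, and turned to 0.039 without any scaling and to 0.038 in the log2 values the authors deposited. GF minus DM turned with no scaling to 0.26 (miR-126), 0.37 (miR-126*) and 0.046 (miR-221), with the authors' values to 0.26, 0.37 and 0.018, and for miR-126* to 0.044 with the 75th percentile over all probes. DM minus Veh of miR-221 turned to -0.11 on slide 2, -0.033 with wider merging, -0.11 with no scaling, -0.041 with quantile normalization, -0.024 with total gene signal and -0.10 with the authors' values, and ran from -0.078 to 0.13 without 1 sample. The DM minus Veh arm ratio turned to -0.027 with 15 arrays, -0.030 with normexp and -0.0040 for mean probe values, and ran from -0.035 to 0.079 without 1 sample. Without 1 sample, miR-126 ran from -0.23 to -0.10 in GF against DM, and miR-126* from -0.13 to -0.039 there and from -0.27 to -0.12 in DM against Veh, none passing. The cause of these changes was not tested.

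The count in GF against Veh was 60 with 15 arrays, 50 with the replicate block, 57 with slide as a block, 21 with the mean of all probes, 2 with the authors' values, and 0 on slide 1, on slide 2, with wider merging and with no filter (40, 50, 35 and 46 unadjusted, limma). It ran from 0 (without Veh 1 and 3, Veh 2, Veh 4 or GF 2 and 4) to 28 (without Veh 5), with 24 without DM 3 and 5 and 8 without GF 6. DM against Veh gave 3 with 15 arrays and with slide as a block, 4 with the replicate block, 2 on slide 2 and 0 to 2 without 1 sample; GF against DM gave 6, 5 and 1 in those first settings, 1 with no scaling, 1 with normexp and 0 to 6 without 1 sample. Replicate numbers are those of the sample titles, and the authors' deposited table numbers some GF arrays otherwise. Same-numbered arrays deviated together (r over 0.1) in 6 of 13 pairs, against 22 of 62 pairs of other numbers. Not every pair did, and the labels name nothing shared, so the numbers were not taken to pair the samples. As a hint from the data, 7 of 14 arrays correlated best with an array of their own number. The rate of this by chance was not computed. MiR-222 did not pass the filter; in the alternative without a filter it lay at the floor in all samples, so no difference or ratio of it is given.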
